A study of Mus musculus with 20 samples.

Results

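The comparison sets beta cells labelled as Foxo1 and Hnf4a double knockout (DKO) against wild type (WT), over every named gene with a mean of at least 0.5 FPKM across the 20 libraries of the study. FPKM is a fragment count divided by the gene's length in kilobases and by the library's depth. The filter kept 12455 of 26305 named entries, and it used the mean over all genotypes, so it did not use the difference tested. Just inside it lay Lpar2, with a mean of 0.50007 FPKM, and just outside it Epha2, with 0.499875 FPKM. The study measured RNA in 4 genotypes with 5 libraries each: WT, the Foxo1 knockout (IKO), the Hnf4a knockout (HKO) and DKO. All mice were males 6 to 8 months old on chow. The knockouts were made from floxed Foxo1 and floxed Hnf4a alleles and a RIP-Cre transgene, in which the rat insulin promoter drives Cre recombinase. Per the labels' protocols, islets were purified, and the beta cells sorted from them carried RIP-Cre and ROSA26-tomato, a reporter that Cre switches on. No age finer than this range, no pooling of animals and no strain is given in the labels.

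Foxo1 is a forkhead transcription factor that insulin signalling keeps out of the nucleus, and in beta cells it is known for its part in the response to metabolic stress. Hnf4a is a nuclear receptor of liver, gut, kidney and pancreatic islet that drives epithelial and metabolic genes, and mutations in the human gene cause a form of inherited diabetes. Both factors bind DNA near genes of glucose and lipid metabolism.

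WT libraries held 26.8 to 34.7 M reads and DKO libraries 23.1 to 34.2 M. The insulin genes Ins1 and Ins2 held 16.0 to 22.3% of WT reads and 16.3 to 21.3% of DKO reads. All 10 markers fixed for beta cells were above the filter. So were 24 markers of acinar cells and 8 of delta, PP and epsilon cells, so the filter does not separate cell types. Replicates 1 and 2 of each genotype, and replicates 4 and 5, lay close together. A chi-square statistic per gene, in which sampling noise alone gives 1, had a median of 1.44 to 3.01 over the 4 close pairs of WT and DKO and of 6.06 to 15.3 over their other 16 pairs. The close pairs were therefore treated as correlated in the limma fit (consensus correlation 0.81), and the 3 library sets (replicates 1 and 2, replicate 3, replicates 4 and 5) are shown apart. The labels do not say that libraries came from separate animals, so a p-value covers no more than library-to-library spread, part or all of which may be technical. DKO replicate 3 stood apart in the digestive enzyme genes of acinar cells, described further on.

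Foxo1 transcript was low in every DKO library. WT replicates 1 to 5 measured 8.61, 7.82, 5.33, 5.80 and 5.64 FPKM, and DKO replicates 1 to 5 measured 1.58, 1.59, 1.61, 1.09 and 1.15 FPKM. The groups did not overlap, and the DKO mean of 1.40 ± 0.26 FPKM (SD, n = 5) was 21.1% of the WT mean of 6.64 ± 1.48 FPKM. On the log2(FPKM + 0.5) scale the difference was −1.84 (SE 0.24, limma adjusted p = 0.000429). The exact two-sided permutation test gave p = 0.00794, the smallest that 5 libraries against 5 allow, with close pairs counted as separate libraries. Without replicates 1 and 2 of every genotype the difference was −1.72 and did not pass (limma adjusted p = 0.218). The other FoxO genes, Foxo3, Foxo4 and Foxo6, did not pass, with log2 differences of 0.29, 0.07 and 0.10.

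Hnf4a transcript was lower by less, and it did not pass. WT replicates 1 to 5 measured 6.21, 6.52, 4.32, 5.33 and 5.42 FPKM, and DKO replicates 1 to 5 measured 4.19, 3.52, 4.41, 3.96 and 3.84 FPKM. The groups overlapped through 1 pair of libraries, since DKO replicate 3 lay above WT replicate 3. The DKO mean of 3.99 ± 0.34 FPKM was 71.7% of the WT mean of 5.56 ± 0.86 FPKM (log2 −0.36, SE 0.16, limma adjusted p = 0.999875). The exact permutation test gave p = 0.0159 (n = 5 against 5). The set differences were −0.66 in replicates 1 and 2, 0.03 in replicate 3 and −0.42 in replicates 4 and 5. Gene-level FPKM adds up reads over the whole gene, and reads of floxed and other exons cannot be told apart in it, so it does not measure how complete the deletion was. Hnf4g, a close paralogue, had a log2 difference of 0.21 and did not pass either.

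In all, 42 of 12455 genes passed a limma adjusted p of 0.05 in DKO against WT, which is 0.337% of those tested. Of them 29 were lower in DKO (0.233%) and 13 were higher (0.104%). The falls included Anks4b and Vil1 of the brush border, Tmprss4 and Hpgds of the gut-type list, and the enzymes Elovl2, Dio1 and Bco1. The rises were led by the matricellular gene Sparcl1, the epithelial genes Sprr1a and Krt19 and the neuropeptide gene Npy. Of 58 genes with a log2 difference beyond 1 in either direction, 14 passed. The median over all 12455 genes was a log2 difference of 0.03, with 59.8% of genes above 0. In a bulk sample, fewer cells of a type and less RNA per cell cannot be told apart, for any of these genes.

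**Figure D1:**
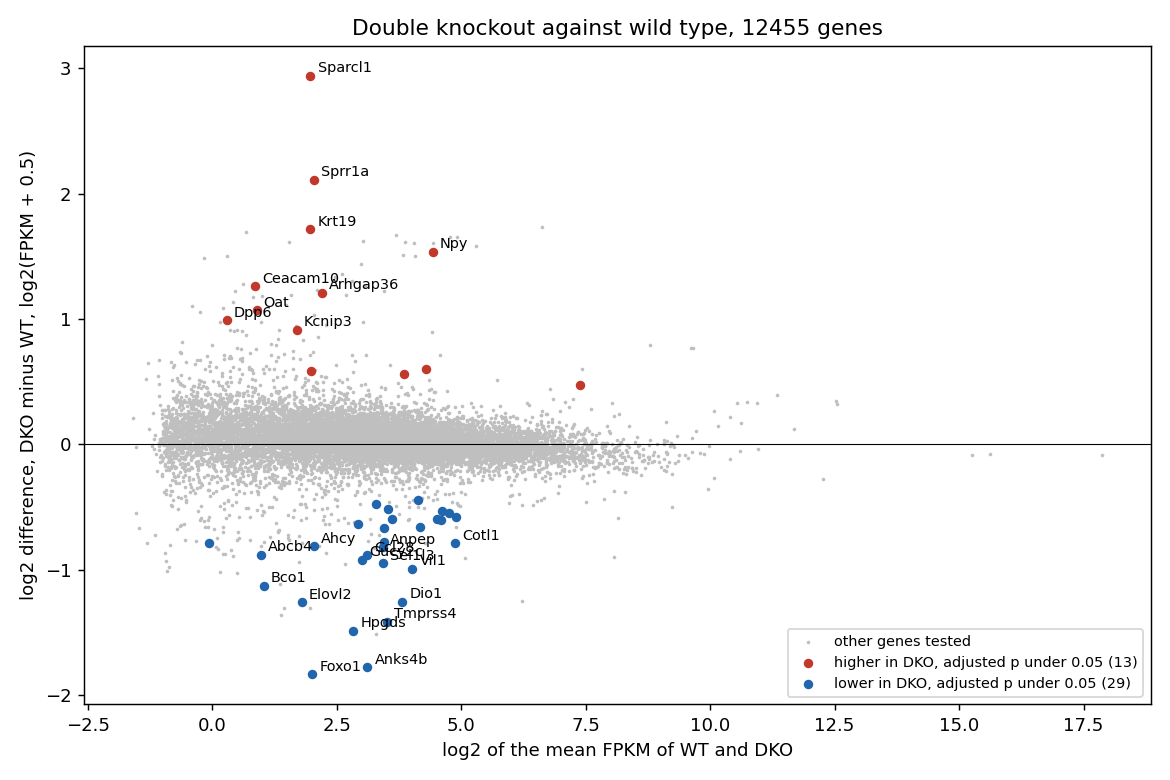
Each point is a gene, with the log2 of its mean FPKM over WT and DKO on the x axis and the DKO minus WT difference in log2(FPKM + 0.5) on the y axis. The 13 genes that passed as higher are red and the 29 that passed as lower are blue; Sparcl1 at 2.94 and Foxo1 at −1.84 mark the ends of the range.

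Every one of the 42 had the same direction in all 3 library sets and no overlap between its 5 WT and 5 DKO libraries. Over all genes tested, 30.7% had the same direction in the 3 sets and 3.37% (420 genes) did not overlap, and a gene that passes the test had to tend to both. The median log2 difference of the 29 falls was −0.85 in replicates 1 and 2, −0.67 in replicate 3 and −0.79 in replicates 4 and 5. For the 13 rises these medians were 1.05, 1.04 and 1.05. Over all genes the set medians were 0.01, 0.11 and −0.02.

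**Figure D2:**
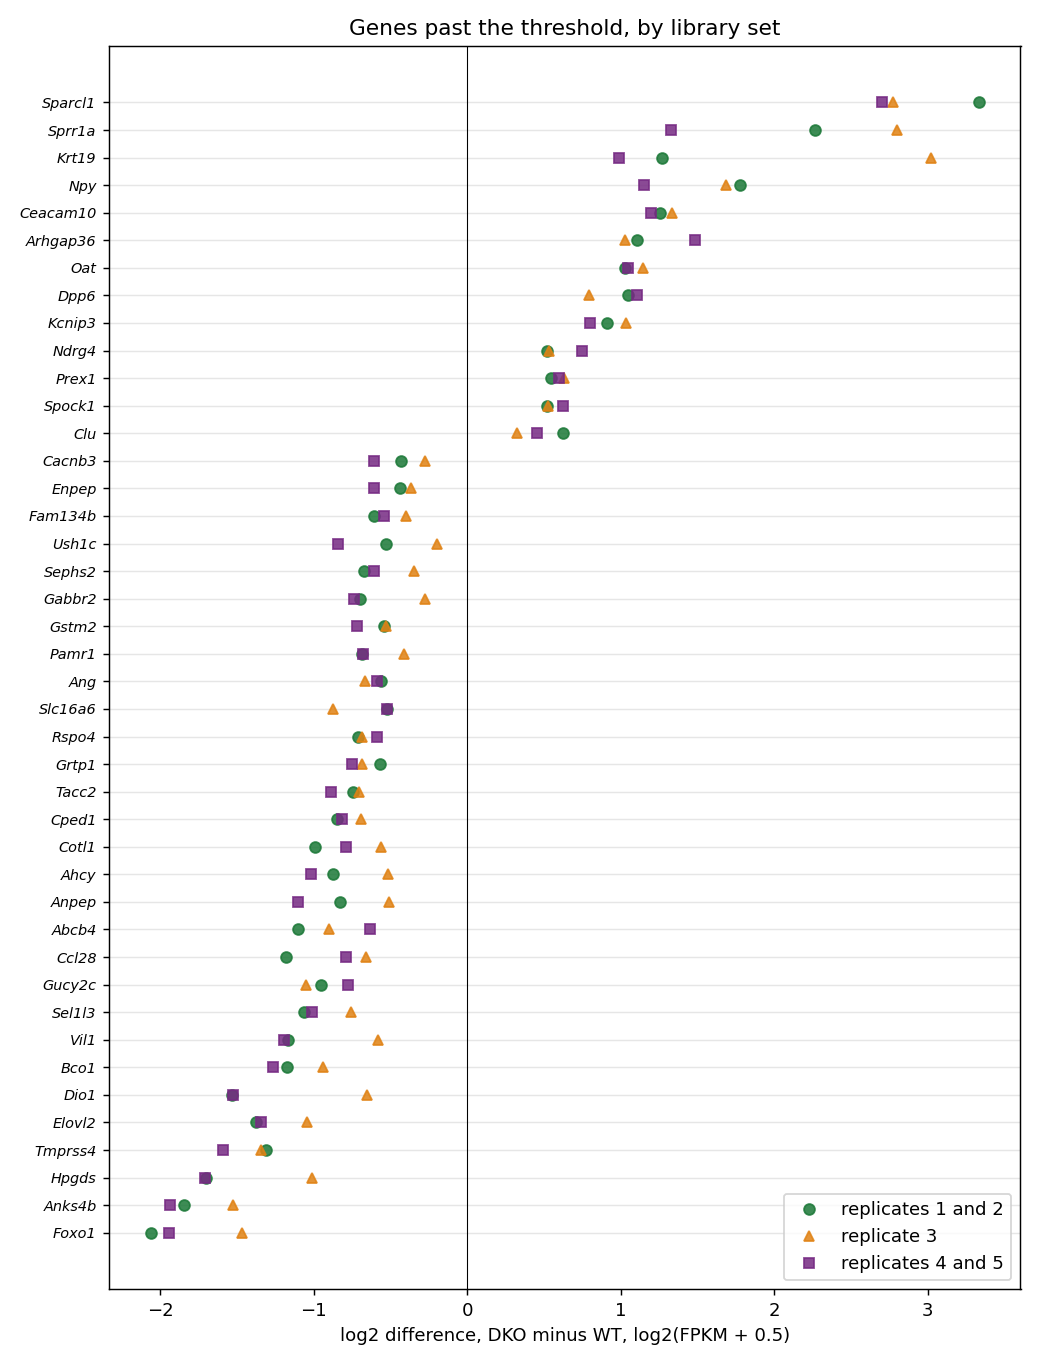
Each row is one of the 42 genes that passed, ordered by its fitted difference, and the x axis is the DKO minus WT difference in log2(FPKM + 0.5) within replicates 1 and 2 (circles), replicate 3 (triangles) and replicates 4 and 5 (squares). The 3 symbols of a gene lie on the same side of 0 in every row; Krt19 spreads most, from 0.99 in replicates 4 and 5 to 3.02 in replicate 3.

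How many genes passed depended on how the close pairs and the library sets were handled. With 5 libraries taken as independent 150 genes passed (1.20%), and all 42 were among them. The main fit holds no term for library set. With library set added as a factor 84 genes passed, and all 42 were among them. With each close pair averaged into 1 sample 17 passed (0.136%), all of them among the 42. These were Foxo1, Anks4b, Tmprss4, Elovl2, Dio1, Bco1, Sel1l3, Gucy2c, Abcb4, Tacc2, Grtp1 and Sephs2 among the falls, and Sparcl1, Arhgap36, Ceacam10, Oat and Dpp6 among the rises. Leaving out any 1 WT or DKO library kept 22 of the 42 past the threshold each time. Without replicates 1 and 2 of all genotypes, which leaves 3 libraries a group, 1 gene passed.

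The brush border group held the gene with the largest fall after Foxo1. Brush border microvilli are the finger-like membrane folds of gut and kidney epithelium, tied together at their tips by an adhesion complex. Anks4b encodes a scaffold of that tip complex. Its WT libraries measured 15.6, 15.7, 12.0, 12.8 and 12.7 FPKM, and its DKO libraries 4.00, 3.97, 3.84, 3.39 and 2.58 FPKM. Every WT library was far above every DKO library. The log2 difference was −1.78 (SE 0.19, limma adjusted p = 2.37e-05), and DKO stood at 25.8% of WT.

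Vil1 encodes villin, which bundles the actin core of microvilli. It measured 26.2, 27.0, 18.7, 19.2 and 19.3 FPKM in WT and 12.0, 11.1, 12.3, 8.09 and 8.16 FPKM in DKO (log2 −0.99, SE 0.17, limma adjusted p = 0.00554). Replicates 4 and 5 were the lowest within DKO, and no DKO library reached the WT range. Ush1c encodes harmonin, a scaffold that binds Anks4b in the tip complex. It measured 30.2, 31.6, 24.0, 31.5 and 30.5 FPKM in WT and 21.4, 21.3, 20.9, 16.9 and 17.3 FPKM in DKO (log2 −0.53, limma adjusted p = 0.0209). WT replicate 3 lay below the other WT libraries, and its distance to the highest DKO library was small. Without the 3 libraries highest in acinar markers the adjusted p of Ush1c was 0.0530.

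Of 15 brush border genes tested, these 3 fell and none rose, where 0.233% of all genes tested fell and 0.104% rose. The lists here and below were chosen with earlier results of these data known, so such counts do not test them. The brush border list's median log2 difference was −0.13 with 7 members above 0. That median was 0.04 over members with a mean of at least 2 FPKM, and 0.02 without replicates 4 and 5. Ezr (ezrin) had a log2 difference of 0.30, Eps8 0.04 and Baiap2l2 −0.66, and none of them passed. Anpep, an aminopeptidase of brush borders that was not in the list, went from 14.0 ± 0.92 to 7.54 ± 1.5 FPKM (log2 −0.82, limma adjusted p = 0.0135).

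Genes of the gut-type epithelial list were also among the falls, with 4 of 19 tested lower and Krt19 higher. Over all genes tested, 0.233% were lower and 0.104% higher. Tmprss4, a membrane serine protease, measured 19.1, 20.4, 16.2, 13.9 and 13.8 FPKM in WT and 7.71, 7.60, 6.11, 4.27 and 4.23 FPKM in DKO (log2 −1.42, SE 0.17, limma adjusted p = 9.67e-05). In both genotypes replicates 1 and 2 were the highest and replicates 4 and 5 the lowest, and every DKO library stayed under every WT library. Hpgds, the haematopoietic prostaglandin D synthase, measured 11.6, 9.78, 7.83, 12.7 and 12.9 FPKM in WT and 2.89, 2.97, 3.63, 3.56 and 3.57 FPKM in DKO (log2 −1.49, SE 0.28, limma adjusted p = 0.0143). Its DKO libraries had an SD of 0.36 FPKM, WT replicate 3 was the lowest of its group, and the groups did not overlap.

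Ccl28, a chemokine of mucosal epithelia, went from 11.4 ± 0.63 to 5.85 ± 1.1 FPKM (log2 −0.89, limma adjusted p = 0.0165, and 0.0682 without WT replicate 3). Gucy2c, the intestinal guanylate cyclase receptor, went from 10.6 ± 1.3 to 5.41 ± 0.23 FPKM (log2 −0.92, limma adjusted p = 0.000584). Of 19 gut-type epithelial genes tested, Tmprss4, Ccl28, Vil1 and Hpgds fell and Krt19 rose, with a list median of −0.10. Of all genes tested, 0.233% fell and 0.104% rose. Vil1 is also counted in the brush border list. Other keratins and the junction genes tested in the same list did not pass. Krt8 had a log2 difference of −0.04, Krt18 −0.10, Epcam 0.03 and Cdh1 0.07.

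Enzymes of lipid, thyroid hormone and carotenoid metabolism were also among the falls. Elovl2, which lengthens very long polyunsaturated fatty acids, measured 6.42, 5.98, 4.61, 4.07 and 4.57 FPKM in WT and 1.92, 2.25, 1.98, 1.45 and 1.35 FPKM in DKO (log2 −1.26, SE 0.16, limma adjusted p = 0.000345). The groups were well apart, with DKO at 34.9% of WT. Of 24 tested genes of fatty acid synthesis, elongation and desaturation Elovl2 alone passed, where 0.337% of all genes tested passed. That list's median was 0.03.

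Dio1, the deiodinase that activates thyroid hormone in liver and kidney, measured 21.2, 20.9, 14.9, 21.9 and 23.9 FPKM in WT and 6.87, 7.03, 9.28, 6.87 and 8.45 FPKM in DKO (log2 −1.26, SE 0.21, limma adjusted p = 0.00478). Replicate 3 was the lowest library of WT and the highest of DKO, so its set difference was −0.65 against −1.53 in each of the other sets. Bco1, which cleaves beta-carotene to retinal, went from 3.02 ± 0.40 to 1.07 ± 0.20 FPKM (log2 −1.13, limma adjusted p = 0.0135, and 0.0630 without DKO replicate 3). Both are in the list of liver-type metabolic enzymes, where Oat rose and the median of 19 genes tested was −0.08. Of all genes tested, 0.233% fell and 0.104% rose. Secreted proteins of liver type had 14 genes tested and none past the threshold, near the 0.337% of all genes tested that passed.

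Ahcy, which hydrolyses S-adenosylhomocysteine, went from 5.43 ± 0.53 to 2.77 ± 0.34 FPKM (log2 −0.81, limma adjusted p = 0.0332). Its call was lost without DKO replicate 3 and without WT replicate 1, 2, 4 or 5 (adjusted p up to 0.0863), and it was 0.0656 without the libraries highest in acinar markers. Abcb4, a phospholipid transporter of the bile canaliculus, went from 2.69 ± 0.49 to 1.22 ± 0.063 FPKM (log2 −0.88, limma adjusted p = 0.0143). It was lost without WT replicate 3 or DKO replicate 3 (adjusted p up to 0.0771), and at 0.0623 without the libraries highest in acinar markers. Sel1l3, a membrane protein of little known function, stood at 14.5 ± 1.5 FPKM in WT and 7.10 ± 0.54 FPKM in DKO (log2 −0.95 with SE 0.10, and limma adjusted p = 2.37e-05). Cotl1, an actin-binding protein, went from 37.5 ± 1.7 to 21.1 ± 2.7 FPKM (log2 −0.79, limma adjusted p = 0.00574).

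The remaining 13 falls lay outside the rule for named genes and are given after their values were seen. They are Cped1, Tacc2, Grtp1, Rspo4, Slc16a6, Ang, Pamr1, Gstm2, Gabbr2, Sephs2, Fam134b, Enpep and Cacnb3. Their log2 differences ran from −0.79 to −0.45, and DKO stood at 41.7% of WT for Cped1 and at 71.6% for Cacnb3. Gabbr2, a subunit of the GABA-B receptor, measured 34.5 to 37.2 FPKM in WT and 21.2 to 28.4 FPKM in DKO. Cacnb3, a beta subunit of voltage-gated calcium channels, measured 19.3 to 21.5 FPKM in WT and 12.9 to 15.8 FPKM in DKO. Neither group of libraries overlapped for either gene. Gstm2 and Ang belong to families of near-identical copies, so their own levels are uncertain.

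Promoter windows are shown for the 4 falls whose promoter held a core element of the HNF4 site, since Hnf4a is targeted in DKO. The sequences are from RefSeq on GRCm38.p6, read 5′ to 3′ on the gene's strand and ending before the start of transcription, with the matched letters in capitals. In Bco1 the capitals also cover a direct repeat of nuclear receptors, which is AGGTCA on the other strand, repeated after 1 free base. The windows lie at chr7:120173764-120173837 (plus strand, Anks4b), chr6:65144794-65144867 (minus strand, Hpgds), chr8:117095774-117095851 (plus strand, Bco1) and chr2:155074584-155074657 (minus strand, Ahcy).
Anks4b: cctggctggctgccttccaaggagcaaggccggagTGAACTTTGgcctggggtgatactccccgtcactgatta
Hpgds: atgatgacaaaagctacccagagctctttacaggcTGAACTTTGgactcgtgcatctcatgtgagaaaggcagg
Bco1: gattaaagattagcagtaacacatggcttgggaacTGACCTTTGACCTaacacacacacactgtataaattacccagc
Ahcy: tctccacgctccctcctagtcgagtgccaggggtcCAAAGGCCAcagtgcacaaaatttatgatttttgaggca
The match began 59, 102, 56 and 125 bases before the start in these 4 genes, in that order.

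Promoters ran from 250 bases before to 50 after the start, and 32 of the 42 genes had one or more in the table, 44 in all. The letters CAAAGNNCA, on either strand, were searched after the data had been seen. They were in 4 of 25 promoters of genes that fell (16%), in 0 of 19 of genes that rose, in 4.76% of promoters of genes tested and in 6.36% of all 32851. The full HNF4 site CAAAGTCCA was in none of the 44, against 0.356% of promoters of genes tested. The direct repeat was in Bco1 alone, against 0.0497%. The forkhead core TGTTTAC was in none of the 44, against 2.56%. A match describes the letters in this window and does not show binding.

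Among the rises, Sparcl1 changed by far the most. It encodes a secreted relative of SPARC that binds extracellular matrix. Its WT libraries measured 0.373, 0.276, 0.360, 0.716 and 0.839 FPKM, and its DKO libraries 7.63, 7.98, 5.37, 7.95 and 7.64 FPKM. DKO replicate 3 was the lowest of its group and still far above every WT library. The log2 difference was 2.94 (SE 0.29, limma adjusted p = 2.37e-05), and the ratio of mean FPKM was 14.3. Spock1, a secreted proteoglycan of the same family, went from 11.6 ± 1.0 to 17.3 ± 0.83 FPKM (log2 0.56, limma adjusted p = 0.0210, and 0.102 without DKO replicate 3). Of 12 genes of extracellular matrix and the SPARC family tested, these 2 rose and none fell, where 0.104% of all genes tested rose. The list's median was 0.15 with 11 members above 0. Sparc itself had a log2 difference of 0.03 and did not pass.

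Epithelial genes were also among the rises. Sprr1a, a cornified envelope protein, measured 0.951, 0.816, 0.984, 1.67 and 2.56 FPKM in WT and 6.42, 5.89, 9.84, 6.70 and 5.31 FPKM in DKO (log2 2.11, SE 0.38, limma adjusted p = 0.0127). The groups did not overlap, and replicate 3 was the highest library of DKO. Its call was lost without WT replicate 3 or DKO replicate 3 (adjusted p up to 0.0772). Ceacam10, a secreted member of the carcinoembryonic antigen family, went from 0.873 ± 0.27 to 2.75 ± 0.52 FPKM (log2 1.26, limma adjusted p = 0.0157, and 0.114 without WT replicate 3). Sprr1a and Ceacam10 have close relatives in the genome, and the sources used here do not say how reads shared with them were counted.

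Krt19, a keratin of duct cells, measured 1.04, 1.69, 1.11, 2.61 and 2.04 FPKM in WT and 4.18, 3.68, 12.6, 4.84 and 5.32 FPKM in DKO (log2 1.72, SE 0.33, limma adjusted p = 0.0165). DKO replicate 3 was more than 2 times any other library. The call was lost without DKO replicate 3 or WT replicate 3 (adjusted p up to 0.110), and without the libraries highest in acinar markers the adjusted p was 0.0908. Of 9 tested ductal markers Krt19 alone passed, where 0.337% of all genes tested passed. The summed level of the 13 listed ductal markers was 761 to 1304 FPKM in WT and 1084 to 1806 FPKM in DKO, and its part in the rise of Krt19 was not tested.

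Npy encodes neuropeptide Y, which immature beta cells express. It measured 9.61, 9.63, 6.63, 15.8 and 14.3 FPKM in WT and 36.2, 32.5, 22.5, 35.8 and 32.0 FPKM in DKO (log2 1.53, SE 0.28, limma adjusted p = 0.0127, and 0.0854 without WT replicate 3). Replicate 3 was the lowest library in both genotypes, and the groups did not overlap. Of 13 genes of dedifferentiation and progenitor state tested, Npy alone passed, where 0.337% of all genes tested passed. The list's median was 0.14. Aldh1a3, a marker of failing beta cells, went from 11.1 ± 2.3 to 17.3 ± 5.2 FPKM (log2 0.56, limma adjusted p = 0.857), and Neurog3, the endocrine progenitor factor, had a log2 difference of 0.47 that did not pass.

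Genes disallowed in beta cells are those that nearly every tissue except the beta cell expresses. Oat, the ornithine aminotransferase, measured 1.13, 0.914, 0.775, 1.15 and 1.16 FPKM in WT and 2.62, 2.55, 2.32, 2.98 and 2.85 FPKM in DKO (log2 1.07, SE 0.17, limma adjusted p = 0.00462). The groups were far apart relative to their spread. Ndrg4, a member of the N-myc downstream regulated family, went from 15.5 ± 1.3 to 23.9 ± 0.47 FPKM (log2 0.60, limma adjusted p = 0.00462). Its WT level was above the median WT level of 9.05 FPKM over all genes tested, so Ndrg4 was not silent in these WT cells. Of 10 genes of this list tested, Oat and Ndrg4 rose and none fell, where 0.104% of all genes tested rose. The list's median was 0.15 with 7 members above 0. Ldha, the lactate dehydrogenase of this list, went the other way, from 4.57 ± 0.88 to 2.43 ± 0.58 FPKM, and did not pass.

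Dpp6 and Kcnip3, accessory subunits of A-type potassium channels, rose. Dpp6 measured 0.564, 0.653, 0.664, 0.617 and 0.646 FPKM in WT and 1.80, 1.79, 1.52, 2.08 and 1.80 FPKM in DKO (log2 0.99, SE 0.16, limma adjusted p = 0.00462). Every DKO library was more than 2 times any WT library. Kcnip3, a calcium sensor that binds the same channels, measured 1.87, 1.88, 1.68, 2.47 and 2.72 FPKM in WT and 4.11, 3.81, 3.97, 5.02 and 4.78 FPKM in DKO (log2 0.91, limma adjusted p = 0.0244). Its groups did not overlap, and its call was lost without DKO replicate 3 or WT replicate 3 (adjusted p up to 0.171). Of 15 potassium channel genes tested, these 2 rose and none fell, where 0.104% of all genes tested rose. The list's median was −0.02 with 7 members above 0.

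The other rises covered several functions. Arhgap36, an antagonist of protein kinase A, stood at 2.52 ± 0.38 FPKM in WT and 6.63 ± 0.92 FPKM in DKO (log2 1.21, SE 0.20, limma adjusted p = 0.00462). Clu, the secreted chaperone clusterin, went from 139 ± 20 to 195 ± 13 FPKM (log2 0.47, limma adjusted p = 0.0244). Its call was lost without DKO replicate 3 (adjusted p 0.160) and without the libraries highest in acinar markers (0.142). Prex1, an exchange factor for Rac, measured 2.91 to 3.37 FPKM in WT and 4.64 to 5.09 FPKM in DKO (log2 0.59, limma adjusted p = 0.0378). The groups of Prex1 were tight and apart, yet leaving out any 1 of the 10 libraries ended its call (adjusted p up to 0.176). Prex1 lies on chromosome 2, 3.1 Mb from Hnf4a, and Ahcy (8.4 Mb), Rspo4 (11.7 Mb), Kcnip3 (36.1 Mb) and Pamr1 (61 Mb) lie there too. In all 5 of 961 genes tested on that chromosome passed (0.52%), against 0.337% of all genes tested. Chromosomes 3, 6, 7, 8 and 13 had higher shares, of 0.596% to 0.752%.

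**Figure D3:**
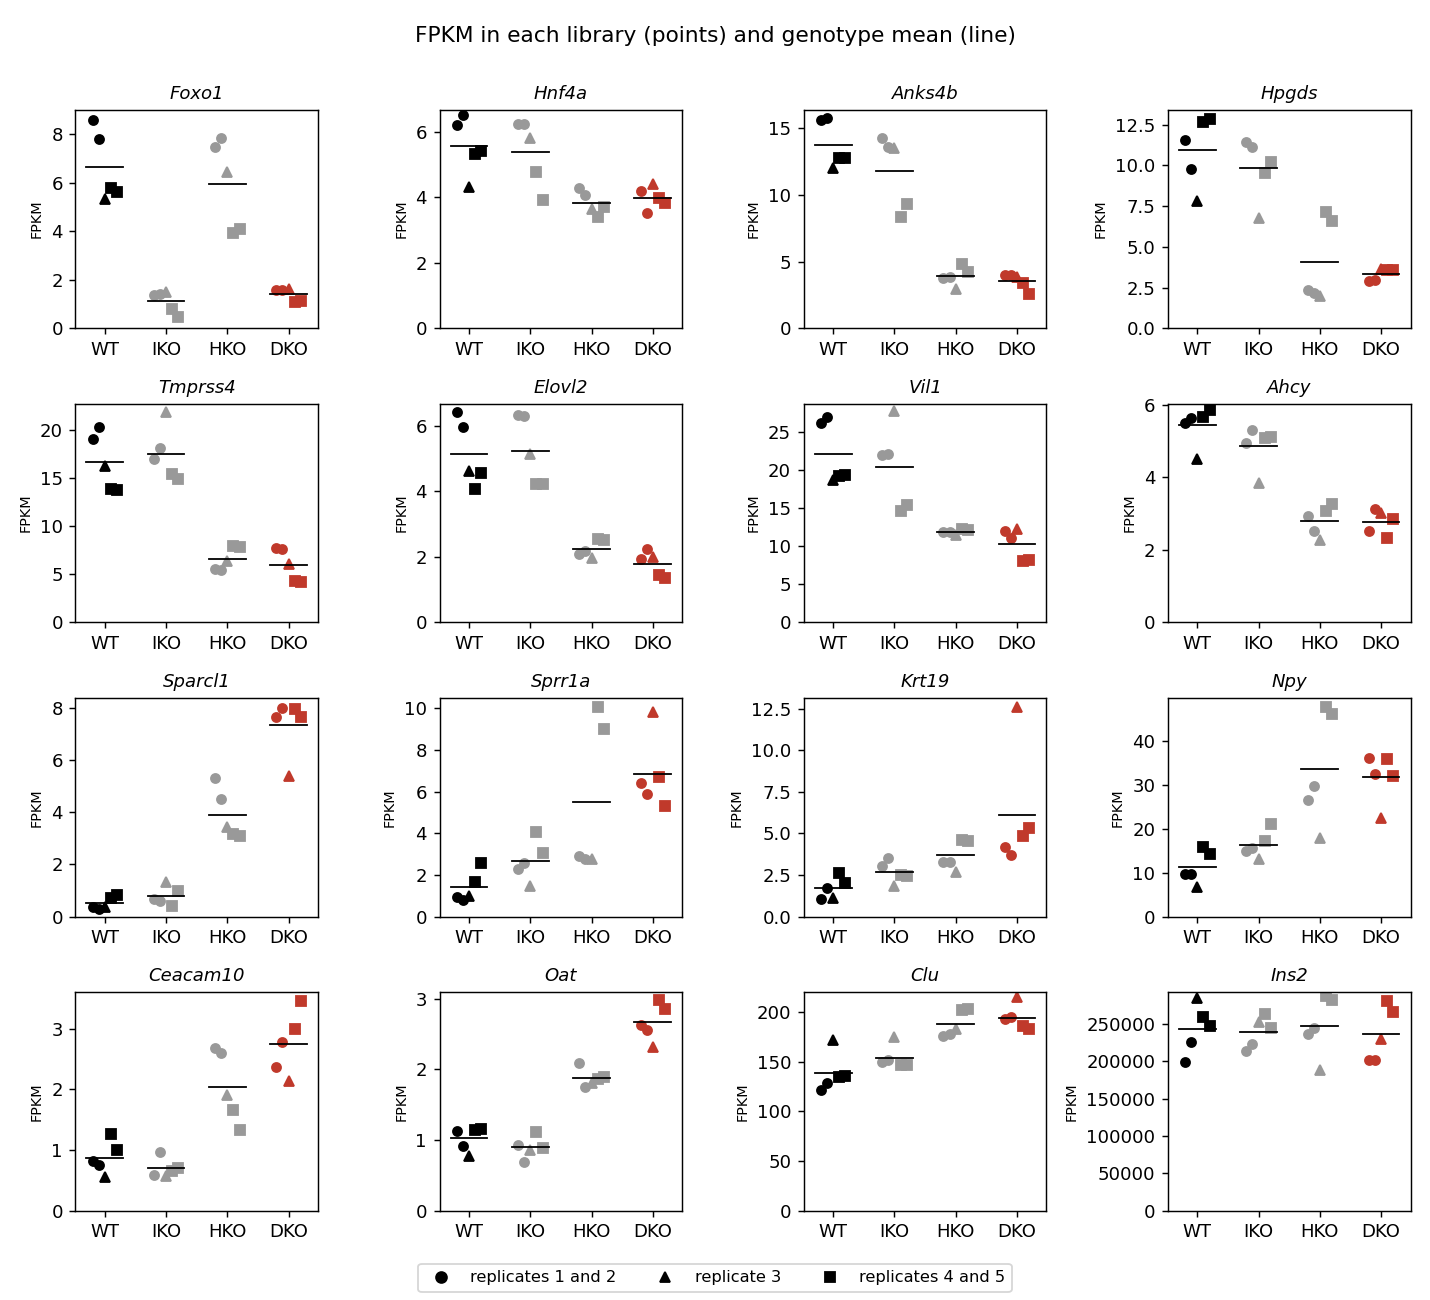
Each panel is a gene, with FPKM on a y axis from 0 and the 4 genotypes on the x axis; points are libraries, their shape gives the library set, and lines are genotype means. WT (black) and DKO (red) do not overlap in 14 of the panels, while Hnf4a overlaps in 1 pair of libraries and Ins2, the main insulin gene, overlaps throughout.

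Lists of beta cell genes and of FoxO targets held 0 genes past the threshold, near the 0.337% of all genes tested that passed, so these counts are no result about the lists. Of 20 beta cell transcription factors tested 0 passed, with a median log2 difference of 0.11. Mafa, a factor of mature beta cells, went from 135 ± 29 to 170 ± 7.9 FPKM, and Nkx6-1 from 107 ± 18 to 120 ± 4.1 FPKM. Of 21 insulin and granule genes 0 passed, with a median of −0.04. Ins2 measured 243411 ± 32843 FPKM in WT and 236291 ± 36132 in DKO. Of 30 genes of glucose sensing and exocytosis 0 passed, with a median of 0.06, and Abcc8, the sulphonylurea receptor, went from 296 ± 37 to 284 ± 23 FPKM. Of 26 FoxO target genes 0 passed, with a median of 0.13.

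Glycolysis had 19 genes tested and 0 past the threshold, with the lowest list median, −0.17. Its set medians were −0.27, −0.10 and −0.12. Only 4 of its members were above 0, where 59.8% of all genes were. Aldoa and Gapdh, the members with the highest levels, had log2 differences of −0.11 and −0.20. Pfkl, a phosphofructokinase subunit, went from 33.1 to 23.5 FPKM and Eno1, an enolase, from 111 to 82.2 FPKM. Both were picked after their values were seen. Neither overlapped between WT and DKO libraries, as was so for 3.37% of all genes tested. Oxidative phosphorylation (31 genes tested), cholesterol synthesis (24), fatty acid oxidation (20), and endoplasmic reticulum folding and stress (26) had none past the threshold and medians of −0.04, 0.03, −0.03 and −0.07. Their members above 0 numbered 8, 13, 5 and 5 in that order, so a low count was not particular to glycolysis. Counts of 0 past the threshold lie near the 0.337% of all genes tested that passed.

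**Figure D4:**
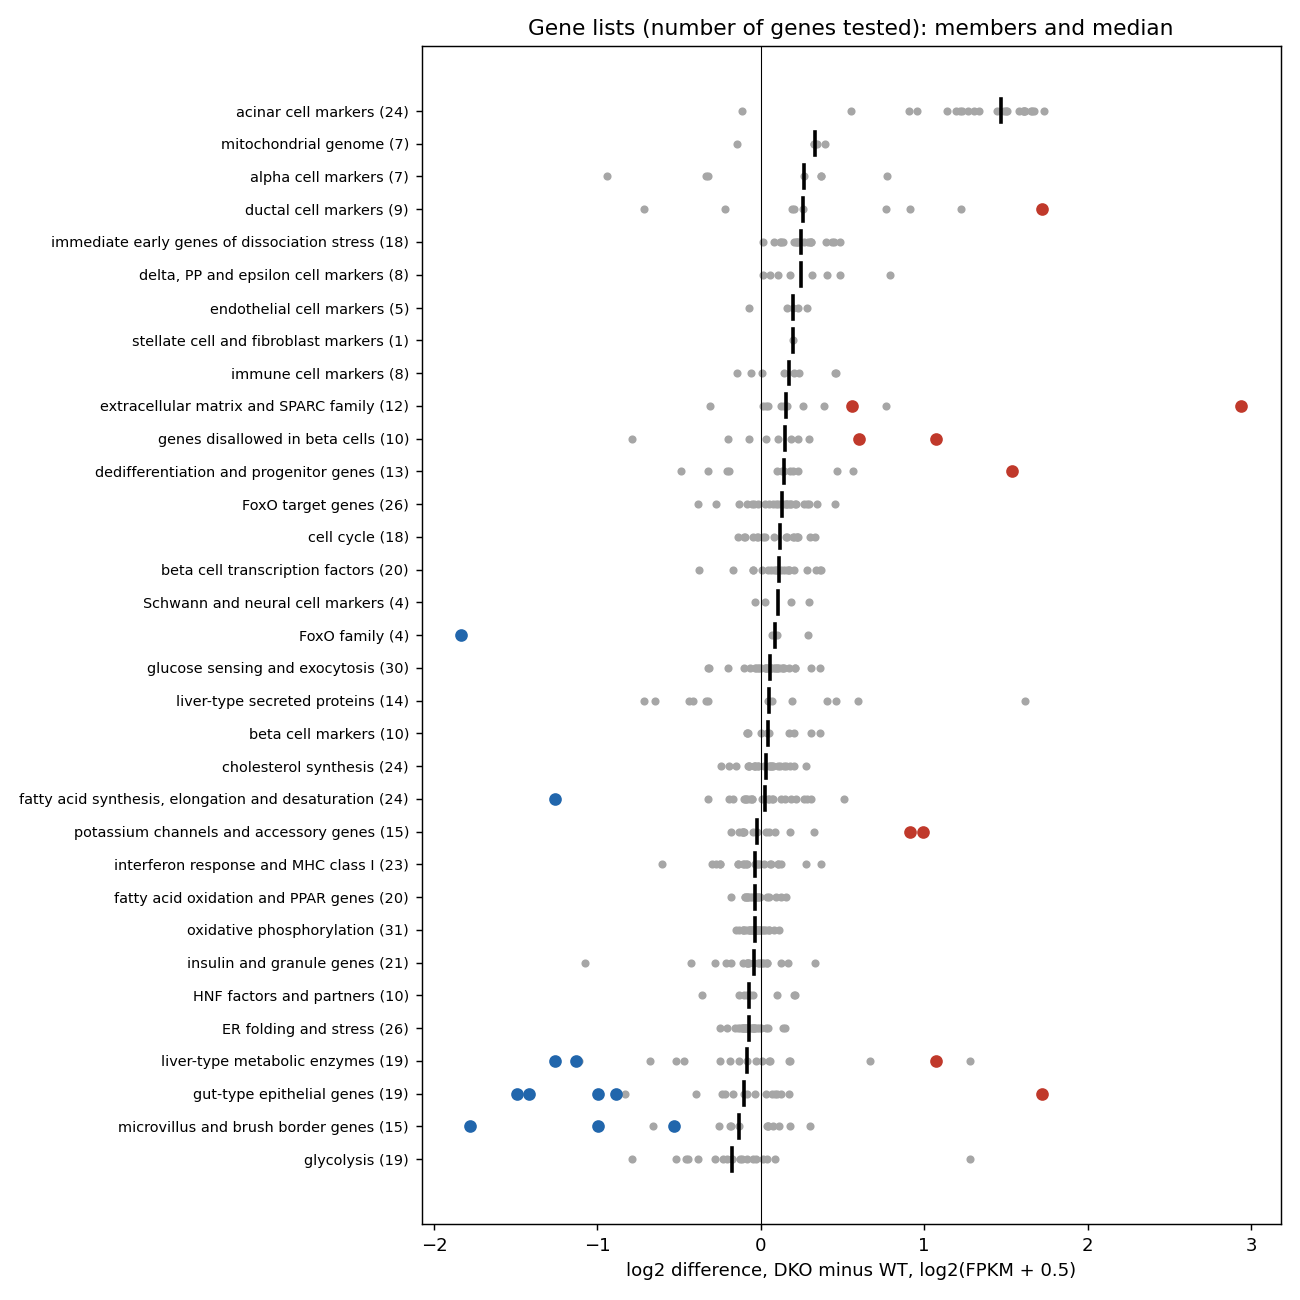
Each row is one of 33 gene lists with its number of genes tested; points are members, placed by the DKO minus WT difference in log2(FPKM + 0.5), and bars are list medians. Members that passed are larger and coloured, in 10 lists; the acinar list, with a median of 1.47 and no member past the threshold, stands at the top.

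Digestive enzyme genes of acinar cells were measured in both genotypes and were higher in most DKO libraries. Of 24 acinar markers tested 0 passed, 23 had a log2 difference above 0, and the median was 1.47. It was 0.55 without DKO replicate 3, and 0.38, 2.47 and 1.5 in the 3 library sets. Their summed level was 70.3 to 317 FPKM in WT and 215 to 1705 FPKM in DKO, highest in DKO replicate 3. Prss1 and Amy2a5 were at 0 in all 10 libraries. Ctrb1, a chymotrypsinogen, went from 46.3 ± 34 to 151 ± 182 FPKM. Without the 3 libraries highest in these markers (DKO replicate 3, HKO replicates 4 and 5), 31 of the 42 genes still passed.

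None of the alpha, delta, PP and epsilon, endothelial, stellate, immune or Schwann cell markers tested passed. These counts lie near the 0.337% of all genes tested that passed, so they are no result about these cell types. Those tested were 7 of 11 alpha, 8 of 9 delta, PP and epsilon, and 5 of 13 endothelial markers. Also tested were 1 of 13 stellate, 8 of 17 immune and 4 of 8 Schwann markers. The summed level of endothelial markers was 7.17 to 18.1 FPKM in WT and 7.45 to 23.0 in DKO, and that of immune markers 32.9 to 47.5 and 43.6 to 65.3 FPKM. Gcg, the glucagon gene of alpha cells, went from 726 ± 310 to 900 ± 342 FPKM, with set differences of 0.22, 2.90 and −0.61. Immediate early genes, which cell dissociation can switch on, had 18 genes tested, 0 past the threshold and all 18 above 0 in the fit; their median was 0.25 and −0.02 in replicate 3. The part of these markers in the differences above was not tested.

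Against the single knockouts, the DKO levels of most of these genes lay near those of HKO. The single-knockout differences below use the same WT libraries as the DKO difference. The mean log2(FPKM + 0.5) of the 24 acinar markers was 1.04 to 2.94 in WT and 0.53 to 2.74 in IKO libraries. It was 3.63 to 5.19 in HKO and 2.40 to 5.27 in DKO libraries. The part of these markers in the likeness of DKO and HKO was not tested. Anks4b measured 11.8 ± 2.8 FPKM in IKO and 3.93 ± 0.67 in HKO, so that the log2 differences from WT were −0.18, −1.72 and −1.78 in IKO, HKO and DKO. For Tmprss4 they were 0.12, −1.27 and −1.42, and for Elovl2 0.04, −1.02 and −1.26. For Npy they were 0.63, 1.5 and 1.53. For Sparcl1 they were 0.44, 2.13 and 2.94, with 3.89 ± 0.97 FPKM in HKO. Over the 29 falls, Foxo1 included, the medians were −0.07, −0.73 and −0.79, and over the 13 rises 0.14, 0.73 and 1.07.

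**Figure D5:**
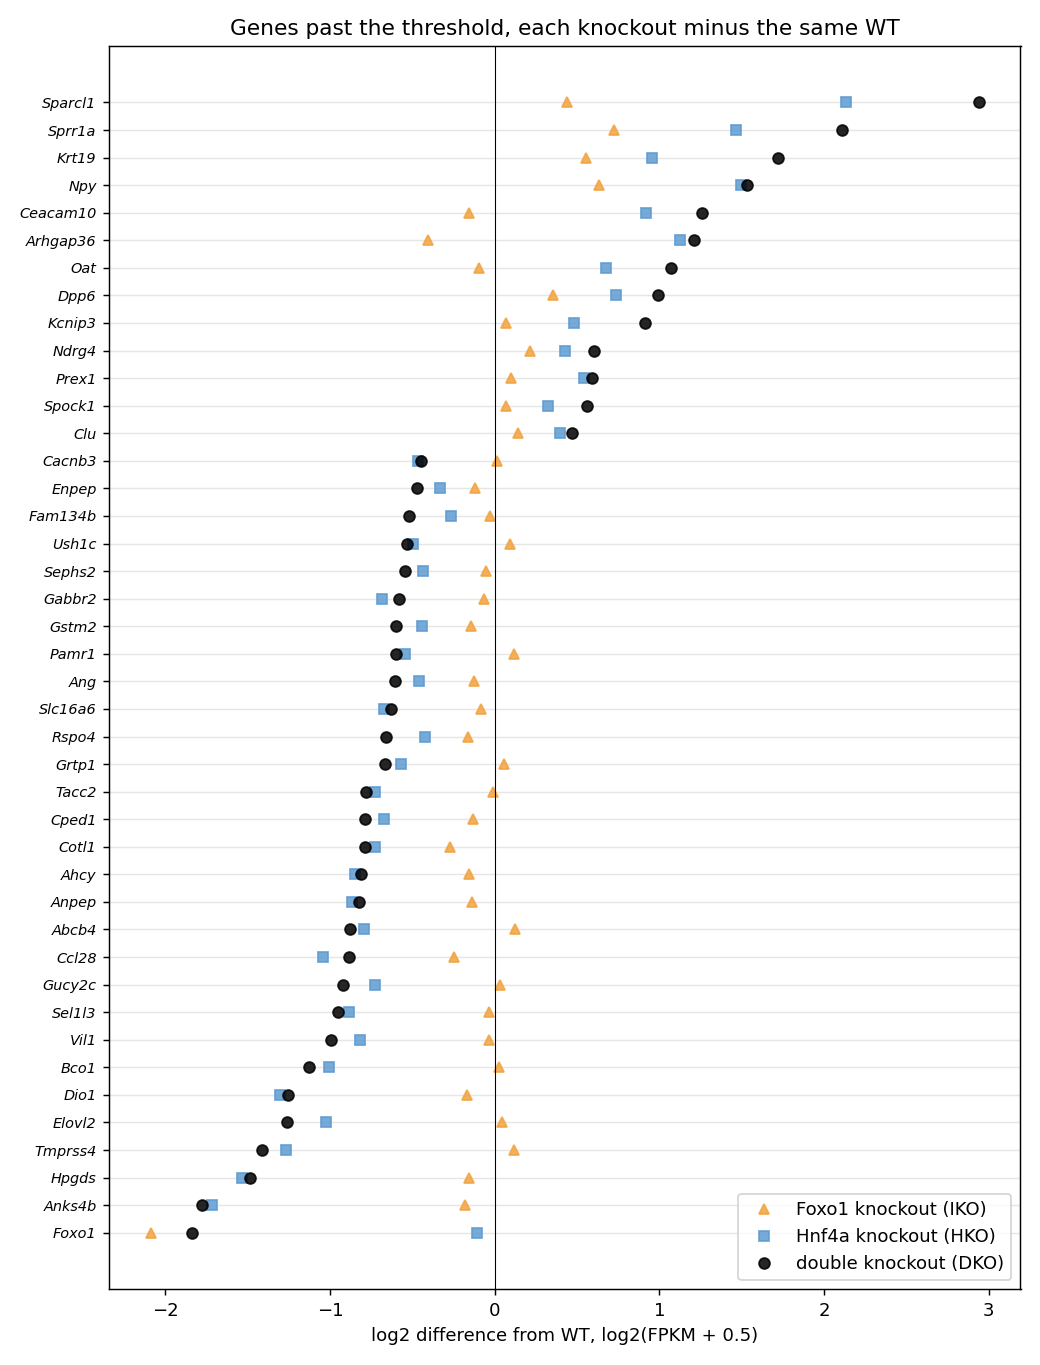
Each row is one of the 42 genes, and the x axis is the difference from the same WT libraries in log2(FPKM + 0.5) for IKO (triangles), HKO (squares) and DKO (circles). Squares and circles lie close together in most falls, such as Anks4b at −1.72 and −1.78, and further apart for Sparcl1, at 2.13 and 2.94; the genes were chosen by their circles.

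Directly tested, DKO differed from HKO in 1 gene, Foxo1 (0.00803% of genes tested, log2 −1.73, limma adjusted p = 0.00768). The DKO minus HKO difference was −0.06 (SE 0.19) for Anks4b and 0.05 (SE 0.28) for Hpgds. It was 0.81 (SE 0.29) for Sparcl1, 0.76 (SE 0.33) for Krt19 and 0.39 (SE 0.17) for Oat, none past the threshold over all genes. A p that misses the threshold does not show that DKO and HKO had the same levels. DKO differed from IKO in 26 genes (0.209%), among them Anks4b (log2 −1.60, limma adjusted p = 0.000107), Tmprss4 (−1.53, 6.55e-05), Sparcl1 (2.5, 0.000107) and Arhgap36 (1.62, 0.000147). Sprr1a (1.39, 0.284), Krt19 (1.17, 0.299) and Npy (0.90, 0.433) did not pass there.

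The interaction asks whether the DKO difference departs from the sum of the single-knockout differences. It passed in 0 genes (0%) by limma, and in 1 gene with 5 libraries taken as independent. At an unadjusted p under 0.05 were 170 genes by limma and 551 with independent libraries. Both are shares below 0.05 of the genes tested, where no difference in any gene gives about 0.05. The same limma fit put 444 genes under that p in DKO against WT and 130 in DKO against HKO. Whether the test was strict was not tested. None of the 42 had an unadjusted interaction p under 0.05. An interaction that misses the threshold does not show that the single-knockout differences add up. A difference that shares no library with the comparison of DKO and WT is HKO minus IKO. It had the same sign as DKO minus WT in all 41 of the 42 genes other than Foxo1, and in 63.2% of all genes tested. Acinar marker levels were also higher in every HKO than in every IKO library, and their part in this was not tested.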

How the data were processed

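The 20 libraries hold RNA of sorted mouse beta cells, and WT and DKO were fitted together with IKO and HKO. The authors deposited 1 table of FPKM values, per the file headers, in which 0 columns belonged to no sample. Named without roles in the submitters' processing notes are featureCounts, DESeq2 1.14.1, Subread 1.5.2, mm10 and STAR 2.5.2b. Annotation and strand setting: not given in the sources used here. Of 27179 entries, 847 named NA (0.0810 to 0.200% of reads in WT and DKO) and 27 with a date for a name (0.168 to 0.186%) were left out. Whole reads within 0.02 reads were recovered from the FPKM steps for 100% of 21006 entries above 0, and served for depth, replicate closeness and a voom alternative.

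Values were log2(FPKM + 0.5), which understates changes of low genes. The test was limma 3.58.1 in R 4.3.3 (lmFit with close pairs correlated by duplicateCorrelation, eBayes with trend) over all 20 libraries, with Benjamini-Hochberg adjustment over 12455 genes at 0.05. Scripts were tested on simulated data. Named genes are those passing with 1 sign in all sets and a mean of at least 1 FPKM in WT or DKO, up to 15 rises and 15 falls, plus Foxo1, Hnf4a, passing list members and, for lists with none, the 2 highest members. Other genes, such as further list members, were chosen after their values were seen. The members, the 33 lists and the fit were chosen with earlier results of these data known. Alternatives covered pseudocounts, filters, scaling, replicate handling and left-out libraries. Gene positions are from GENCODE M21 (GRCm38).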

Additional observations from a re-analysis of the deposited data

Results flagged for a closer look

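Among 86 groups of 5 libraries (43 genes in WT and in DKO), 6 held a library far from the other 4, and chance gives about 1 in 20 groups of independent libraries. These libraries are not independent: replicates 1 and 2, and 4 and 5, are close pairs, which leaves replicate 3 without a partner, and all 6 were replicate 3. In WT replicate 3, Ahcy measured 4.52 FPKM against 5.49 to 5.85 in the others, Ush1c 24.0 against 30.2 to 31.6 and Clu 172 against 122 to 136. In DKO replicate 3, Gabbr2 measured 28.4 FPKM against 21.2 to 22.6, Krt19 12.6 against 3.68 to 5.32 and Sparcl1 5.37 against 7.63 to 7.98.

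For 9 gene lists, the mean log2 difference of DKO minus WT had opposite signs in replicates 1 and 2 and in replicates 4 and 5, with no overlap between WT and DKO libraries within either set. The difference between the sets was not tested. Each set holds only a close pair of libraries per genotype, so lack of overlap within a set is easily met. In that order the values were 0.795 and −0.216 for the mitochondrial genome, 0.0978 and −0.856 for endothelial markers, and 0.334 and −0.323 for immune markers. They were 0.119 and −0.579 for interferon response and MHC class I, 0.275 and −0.373 for liver-type secreted proteins, and 0.0201 and −0.313 for liver-type metabolic enzymes. They were 0.138 and −0.171 for delta, PP and epsilon cell markers, −0.0683 and 0.175 for beta cell markers, and −0.0396 and 0.0402 for oxidative phosphorylation.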

How the results depend on the processing

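None of the 42 genes changed direction under an alternative: of 1088 values, 877 kept their side of the threshold, 211 no longer passed and 0 reversed. The 42 genes of DKO against WT became 150 with 5 independent libraries, 17 with close pairs averaged, 84 with library set as a factor, 65 with no filter on low values, 1 without replicates 1 and 2 and 20 without replicates 4 and 5. Leaving out 1 WT or DKO library gave 29 to 40 genes. In DKO against IKO, 26 genes became 138 with independent libraries, 15 with pairs averaged, 66 with library set as a factor, 41 with no filter, 1 without replicates 1 and 2 and 11 without replicates 4 and 5. In DKO against HKO, the 1 gene became 0 with pairs averaged, a pseudocount of 0.1, without replicates 1 and 2 or without replicate 3, and 2 without replicates 4 and 5. The interaction went from 0 to 1 gene with independent libraries. Foxo1 in DKO against WT fell by 1.72 without replicates 1 and 2 and did not pass. The cause of these shifts was not tested, but leaving out sets leaves fewer libraries. With the replicate block, 59 genes passed in DKO against WT, the 42 among them, and 43 in DKO against IKO. Same-numbered WT and DKO libraries had deviations correlated at 0.426, 0.304, 0.0168, 0.389 and 0.360, and since replicate 3 was under 0.1 the numbers were not taken as pairing the libraries. Deviations went with the library sets: 0.304 to 0.454 between WT and DKO within replicates 1 and 2, 0.328 to 0.389 within replicates 4 and 5, and −0.556 to −0.238 between these sets. Of 857 values of list medians, 807 moved by less than the spread and 50 by more. Depth of 22.6 to 34.7 M reads limits genes near 0.5 FPKM most.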
